A study of Rattus norvegicus with 9 samples.

Results

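Among the genes measured, 8 genes that restrain or promote the deposition of calcium phosphate mineral were described across 3 culture substrates. Mgp, Spp1, Enpp1 and Alpl act on mineral or on its inhibitors. Ggcx uses, and Vkorc1 recycles, the cofactor for modifying Mgp. Gas6 needs the same modification, and Runx2 is a transcription factor of bone formation. These genes were taken by gene symbol, and all 8 were found among the 19919 genes listed. They were chosen by the FPKM levels of these same 9 libraries, with the differences between substrates known, so their levels and differences are given as a description, without a test. The libraries came from wild-type (WT) rat cardiosphere-derived cells (CDCs), a primary stromal culture grown from the left ventricular septum of 4-week-old Sprague Dawley rats. The cells of the OPC group were kept for 3 days on octyl hydroxypropyl cellulose ester, a cholesteric liquid crystal, those of the ULA group on ultralow attachment plastic, and those of the PS group on polystyrene. RNA-Seq gave 3 libraries per group, and the sources do not say whether these came from separate animals, so every p-value below measures the spread between these cultures. Values are read as FPKM, fragments scaled to transcript length and library size. The scaling to length could not be checked from the values, and every comparison of level between genes rests on that reading.

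Cells of soft tissues make inhibitors of mineral growth. Matrix Gla protein (Mgp) is such an inhibitor in arteries and cartilage, and it works only after the enzyme Ggcx has carboxylated its glutamate residues with reduced vitamin K, which Vkorc1 regenerates. Enpp1 makes pyrophosphate, a small inhibitor of crystal growth, whereas the alkaline phosphatase Alpl breaks pyrophosphate down. Osteopontin, the product of Spp1, is an acidic phosphoprotein that binds mineral as well as integrins and CD44, and it is also abundant in activated macrophages.

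The pattern TGNGGT, where N is any base, was searched as a loose form of the core that Runx2 protein binds. Binding at the matches was not tested. Promoter windows were looked up in RefSeq tables of the GRCr8 build, and 6 of the 8 genes were matched, with 7 windows in all because Runx2 has 2. In the 250 bases upstream of the start, Spp1 and the first Runx2 promoter each held 2 matches to this pattern, counting both strands. These windows are shown because one belongs to a gene that differed between substrates and the other to the factor that reads the core. Capitals mark the matches, which for Spp1 (chr14:5619805-5620054, minus strand) lie 126 to 121 and 73 to 68 bases upstream of the start, and for Runx2 (chr9:23664808-23665057, plus strand) 87 to 82 and 76 to 71 bases upstream.
Spp1: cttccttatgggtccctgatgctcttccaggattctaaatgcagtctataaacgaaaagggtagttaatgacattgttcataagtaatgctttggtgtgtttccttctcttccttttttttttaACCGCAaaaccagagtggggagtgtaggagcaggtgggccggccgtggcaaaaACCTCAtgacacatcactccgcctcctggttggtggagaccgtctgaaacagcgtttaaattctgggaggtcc
Runx2: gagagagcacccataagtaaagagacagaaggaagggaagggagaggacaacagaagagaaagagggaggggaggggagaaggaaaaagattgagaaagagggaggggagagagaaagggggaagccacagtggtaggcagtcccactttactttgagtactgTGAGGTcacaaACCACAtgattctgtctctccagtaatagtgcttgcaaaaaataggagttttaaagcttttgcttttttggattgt

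A match to this loose pattern is common. Of 33469 rat promoter windows of the same length, 41.0% held at least 1 and 10.5% held at least 2, and 5 of the 7 windows of these genes held at least 1. Gas6 had 2 matches, Ggcx and Vkorc1 had 1 each, and Alpl and the second Runx2 window had none. Other motifs were searched on both strands as strings only, and no function of a match was tested. The TATA box string TATAAA, found in 12.9% of all windows, lay 204 to 199 bases upstream in Spp1 alone of these 7 windows. The core ACGTG of hypoxia response elements, found in 16.6%, lay 23 to 19 bases upstream in Ggcx alone of the 7. GC boxes (GGGCGG), found in 30.5%, were in 4 of the 7 windows, with 4 matches in Alpl, 3 in Gas6 and 1 each in Ggcx and the second Runx2 window. The AP-1 motif TGANTCA, found in 6.34%, matched none of the 7.

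Mgp was the most abundant listed gene of the OPC and ULA groups. It lies on the minus strand of rn6 (chr4:170856751-170860225, ENSRNOG00000005695). Its level was 20555, 20901 and 19309.7 FPKM in the OPC libraries, 24901, 22636 and 22948 FPKM in the ULA libraries and 2389, 2395 and 2511 FPKM in the PS libraries. The 3 groups did not overlap, and the gap between the PS libraries and the rest was far wider than the gap between OPC and ULA. The means were 20255 ± 837, 23495 ± 1228 and 2432 ± 68.8 FPKM (SD, n = 3 each) in the OPC, ULA and PS groups. As differences of log2(FPKM + 1), written log2FC, Mgp stood at -0.21 for OPC vs ULA, 3.27 for ULA vs PS and 3.06 for OPC vs PS. Each had a standard error of 0.06, which became 0.15 when no filter on low values was used. In bulk RNA, fewer cells of a type and less RNA per cell cannot be told apart.

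The share of the library shows the same order. Mgp held 4.52 ± 0.188% of the summed FPKM of OPC libraries, 5.13 ± 0.271% of that of ULA libraries and 0.546 ± 0.0158% of that of PS libraries (SD, n = 3 each). In the OPC group the next genes were Mt-co1, a mitochondrial subunit of cytochrome c oxidase, with a mean of 12534 FPKM, and the fibronectin gene Fn1 with 6595 FPKM. The ULA group had the same next genes, Mt-co1 at 10949 FPKM and Fn1 at 9360 FPKM. In the PS group Mgp ranked 17 by mean level, behind Mt-co1 (13319 FPKM), Mt-co3 (7872 FPKM), Mt-co2 (7028 FPKM) and 13 other genes. Ordered by log2FC, Mgp was number 60 from the top of the 12513 genes tested in OPC vs PS and number 79 in ULA vs PS.

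**Figure D1:**
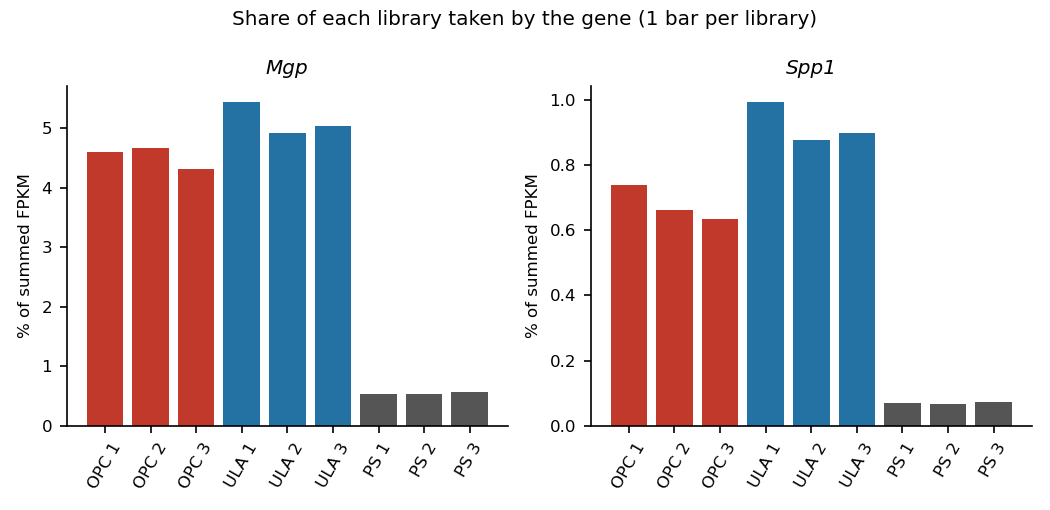
Share of the summed FPKM of each library (%, linear axes from 0) held by Mgp (left) and Spp1 (right), with 1 bar per library for the OPC, ULA and PS groups. Mgp took 4.30 to 4.66% in the OPC libraries, 4.91 to 5.43% in the ULA libraries and 0.536 to 0.564% in the PS libraries, and Spp1 stayed under Mgp in every library.

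Spp1 had the widest difference of the 8 genes between ULA and PS. It lies at chr14:6673686-6679901 on the minus strand (ENSRNOG00000043451). Its level was 3313, 2976 and 2852 FPKM in the OPC libraries, 4551, 4042 and 4089.7 FPKM in the ULA libraries and 311, 301 and 321 FPKM in the PS libraries. Every OPC library was below every ULA library, and both groups were about an order of magnitude above PS. The means were 3047 ± 239, 4228 ± 281 and 311 ± 9.57 FPKM (SD, n = 3 each) in the OPC, ULA and PS groups, so that osteopontin RNA ranked 12, 9 and 173 in them. The log2FC was -0.47 for OPC vs ULA, 3.76 for ULA vs PS and 3.29 for OPC vs PS, with a standard error of 0.06.

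Mgp and Spp1 thus kept the same order of groups, with ULA highest, OPC next and PS lowest, but not in fixed proportion. The ratio of Mgp to Spp1 was 6.20, 7.02 and 6.77 in the OPC libraries, 5.47, 5.60 and 5.61 in the ULA libraries and 7.67, 7.95 and 7.83 in the PS libraries. No library of a group reached the range of another, and Spp1 was nearest to Mgp in the ULA group.

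RNA of other cell types was read beside these levels, since macrophages are a known source of osteopontin. Of 12 leukocyte markers, 8 were listed, and their summed level was 44.8 to 51.3 FPKM in the OPC libraries, 75.5 to 79.6 FPKM in the ULA libraries and 20.9 to 23.1 FPKM in the PS libraries, the same order of groups as Mgp and Spp1. Most of it came from the lysosomal gene Cd68 (means 23.9, 39.8 and 3.04 FPKM in OPC, ULA and PS) and from Cd14 (21.6, 35.0 and 18.2 FPKM). The pan-leukocyte gene Ptprc was near 0 (0.0275, 0.00806 and 0.00383 FPKM in OPC, ULA and PS), as was the macrophage gene Csf1r (0.132, 0.423 and 0.262 FPKM), and Adgre1 was listed at 0 in every PS library. The part of such cells in the Spp1 and Mgp levels was not tested.

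The summed smooth muscle markers, all 7 listed, ran the other way. They reached 143 to 248 FPKM in OPC libraries, 83.3 to 87.5 FPKM in ULA libraries and 4349 to 4428 FPKM in PS libraries. Most of this sum was Acta2 (means 94.9, 41.7 and 2487 FPKM in OPC, ULA and PS) and Tagln (89.8, 33.5 and 1850 FPKM). Myh11 shared their order, Cnn1 and Cspg4 were lowest in OPC, and Des and Rgs5 were highest in ULA. Vascular smooth muscle is another site of Mgp expression, and the part of such cells in its level was not tested. The markers of cardiac stromal and mesenchymal cells were all 9 listed. They summed to 5351 to 5551 FPKM in OPC libraries, 5464 to 6012 FPKM in ULA libraries and 8846 to 9288 FPKM in PS libraries. Most of this sum was Col1a1, with means of 3756, 3320 and 5833 FPKM in OPC, ULA and PS. Thy1, Col1a2, Vim and Tcf21 were also highest in PS by mean. Pdgfra (68.9, 68.5 and 16.7 FPKM), Pdgfrb (436, 274 and 258 FPKM), Eng and Ddr2 were instead lowest in PS. Cardiomyocyte markers (7 of 8 listed) reached at most 3.75 FPKM in sum in any library, and endothelial markers (5 of 7 listed) lay between 3.04 and 5.38 FPKM. Of the osteoblast and chondrocyte markers, 7 of 8 were listed, and only the cartilage proteoglycan gene Acan reached a mean of 1 FPKM (5.95, 1.85 and 10.7 FPKM in OPC, ULA and PS). Bglap, which encodes osteocalcin, had means of 0.142, 0.262 and 0.365 FPKM in OPC, ULA and PS, and the osteoblast genes Sp7 and Dmp1 were listed at 0 in every OPC and every PS library. In the ULA libraries Sp7 had 0.150, 0.0967 and 0.236 FPKM, and Dmp1 was above 0 in 1 library, at 0.0576 FPKM.

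**Figure D2:**
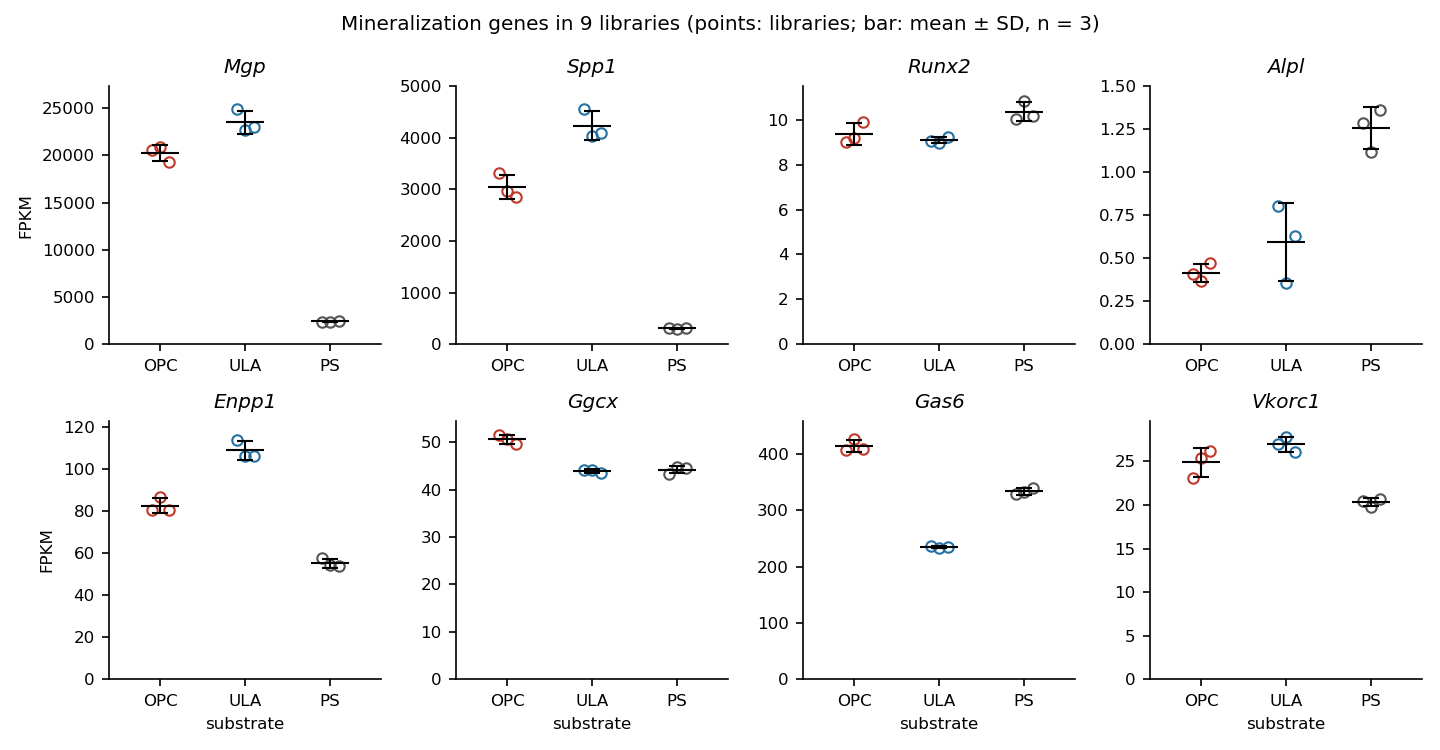
FPKM of the 8 genes in each of the 9 libraries, by substrate (OPC, ULA and PS from left to right), with points for libraries and bars for the mean ± SD (n = 3), each panel on its own axis as labelled. Mgp and Spp1 separate PS from the other substrates, Gas6 was highest in OPC and lowest in ULA, and Runx2 stayed between 8.99 and 10.9 FPKM in all 9 libraries.

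Of Enpp1 and Alpl, which make and remove pyrophosphate, Enpp1 was the more abundant in every library. Enpp1 (chr1:21748261-21813371, plus strand, ENSRNOG00000013994) had 80.5, 86.8 and 80.3 FPKM in the OPC libraries, 114, 106 and 106 FPKM in the ULA libraries and 57.5, 54.3 and 53.6 FPKM in the PS libraries. All 3 groups stood apart in the order of Mgp and Spp1, with means of 82.5 ± 3.73, 109 ± 4.47 and 55.2 ± 2.09 FPKM (SD, n = 3 each) in OPC, ULA and PS. Its log2FC was -0.40 for OPC vs ULA, 0.97 for ULA vs PS and 0.57 for OPC vs PS (standard error 0.05).

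Alpl, the phosphatase that removes pyrophosphate, was barely present. The gene (chr5:156086497-156141537, minus strand, ENSRNOG00000013954) had 0.408, 0.366 and 0.472 FPKM in the OPC libraries, 0.802, 0.354 and 0.629 FPKM in the ULA libraries and 1.29, 1.12 and 1.36 FPKM in the PS libraries. It passed the filter on low values (3 or more libraries at 1 FPKM or above) only through the PS group, where it is high. The OPC and ULA libraries overlapped, while every PS library was above both. Its log2FC was -0.16 for OPC vs ULA, -0.51 for ULA vs PS and -0.67 for OPC vs PS (standard error 0.13). At such levels the log2FC depends on the pseudocount. With a pseudocount of 0.1 in place of 1 it was -0.38, -1.02 and -1.40, and its standard error grew to 0.31. The ratio of Enpp1 to Alpl was 201 ± 33.8 in OPC, 204 ± 84.3 in ULA and 44.2 ± 4.57 in PS (SD, n = 3 each), with the OPC values of 170.0 to 237 inside the ULA range of 142 to 300.

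Ggcx and Vkorc1 varied little beside Mgp. Ggcx, the gamma-glutamyl carboxylase (chr4:100277391-100293250, plus strand, ENSRNOG00000012975), had 51.5, 50.7 and 49.6 FPKM in the OPC libraries, 44.2, 44.1 and 43.5 FPKM in the ULA libraries and 43.3, 44.9 and 44.5 FPKM in the PS libraries. OPC stood above the other groups, and ULA overlapped PS. The log2FC of Ggcx was 0.20 for OPC vs ULA, -0.01 for ULA vs PS and 0.19 for OPC vs PS (standard error 0.03). When the libraries were rescaled by their upper quartile, it was 0.13 for OPC vs ULA and 0.11 for OPC vs PS. With the libraries rescaled to equal sums without Mgp, a scaling chosen after the data were seen, ULA vs PS took the other sign at 0.02.

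Vkorc1, the epoxide reductase that recycles vitamin K (chr1:199337138-199341302, minus strand, ENSRNOG00000050828), had 23.1, 25.4 and 26.2 FPKM in the OPC libraries, 27.0, 27.8 and 26.1 FPKM in the ULA libraries and 20.5, 19.8 and 20.7 FPKM in the PS libraries. The OPC and ULA libraries overlapped and all 6 were above PS. Its log2FC was -0.11 for OPC vs ULA, which became -0.19 after upper-quartile rescaling, 0.39 for ULA vs PS and 0.28 for OPC vs PS (standard error 0.05). The ratio of Mgp to Ggcx was 400.4 ± 11.7 in OPC, 535 ± 26.0 in ULA and 55.0 ± 1.53 in PS (SD, n = 3 each). The RNA for the Gla protein thus differed between culture substrates far more than the RNA for its carboxylase. The ratio of Mgp to Vkorc1 was 817 ± 77.7 in OPC, 871 ± 54.8 in ULA and 119.5 ± 2.58 in PS.

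Gas6 was the only one of the 8 with PS between the other groups and no overlap between any of them. Its product is a Gla protein that binds the receptor kinases Tyro3, Axl and Mertk. The gene (chr16:81213364-81243757, minus strand, ENSRNOG00000018233) had 407, 428 and 409 FPKM in the OPC libraries, 237, 233 and 235 FPKM in the ULA libraries and 328, 332 and 341 FPKM in the PS libraries. OPC libraries were the highest, PS libraries intermediate and ULA libraries the lowest, with means of 415 ± 11.3, 235 ± 1.91 and 334 ± 6.32 FPKM (SD, n = 3 each) in OPC, ULA and PS. The log2FC was 0.82 for OPC vs ULA, -0.51 for ULA vs PS and 0.31 for OPC vs PS (standard error 0.03).

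Runx2 (chr9:18564927-18773092, plus strand, ENSRNOG00000020193) had 9.0, 9.17 and 9.92 FPKM in the OPC libraries, 9.06, 8.99 and 9.23 FPKM in the ULA libraries and 10.1, 10.9 and 10.2 FPKM in the PS libraries. OPC and ULA overlapped, and the PS libraries were slightly above both. Its log2FC was 0.04 for OPC vs ULA, which became -0.03 after upper-quartile rescaling, -0.17 for ULA vs PS and -0.13 for OPC vs PS, which became -0.20 after that rescaling (standard error 0.05).

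**Figure D3:**
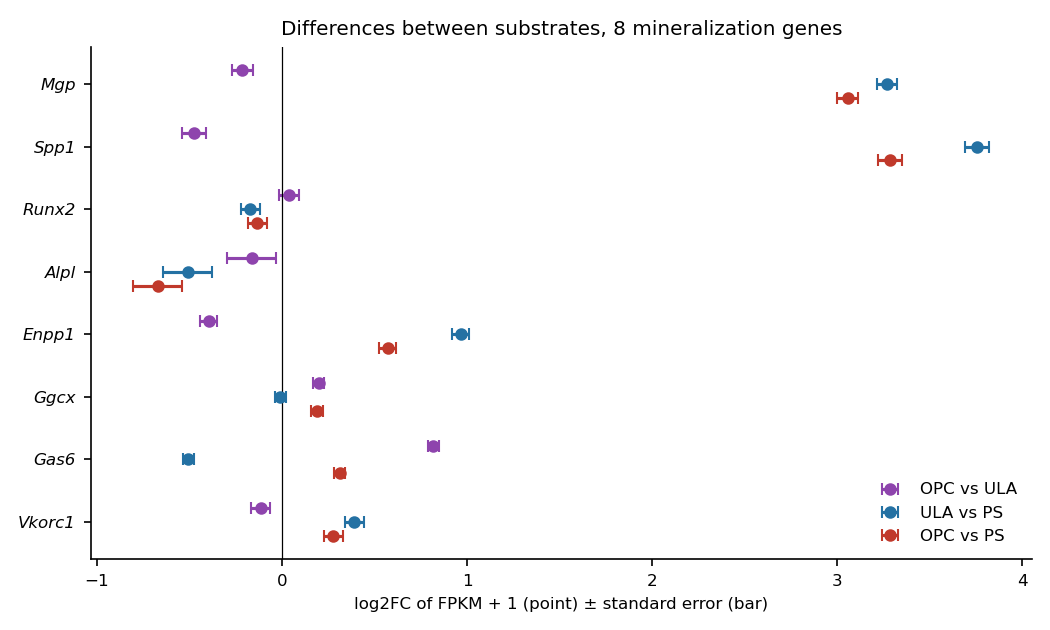
Difference of log2(FPKM + 1) between substrates for the 8 genes (points, with bars of 1 standard error from the limma fit) in OPC vs ULA, in ULA vs PS and in OPC vs PS. Mgp and Spp1 lie above 3 in both comparisons with PS, which share the PS libraries, and all 8 genes lie between -0.47 and 0.82 in OPC vs ULA.

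Counted over the 8 genes, the groups did not overlap for 5 genes in OPC vs ULA, beside 60.7% of the genes tested, for 7 in ULA vs PS, beside 72.4%, and for 8 in OPC vs PS, beside 70.4%. Differentially expressed genes (DEGs) were set at |log2FC| of 1 or more with an adjusted p no larger than 0.05. By that rule 0 of the 8 were DEGs in OPC vs ULA, beside 4.33% of genes tested (1.81% higher and 2.52% lower). In ULA vs PS 2 of them, Mgp and Spp1, were DEGs, both higher, beside 15.8% (8.42% higher and 7.39% lower), and the same 2 in OPC vs PS, beside 12.7% (6.60% higher and 6.11% lower). Nothing is read from these counts, since the genes were chosen for these differences. The median log2FC of the 8 was -0.14, 0.19 and 0.29 in OPC vs ULA, in ULA vs PS and in OPC vs PS, against 0.06, 0.06 and 0.11 over all genes tested.

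Other genes of the same pathways were tested in 7 lists of 117 genes, of which 104 were matched, 31 of these were under the filter and 73 were tested. At the 0.05 limit on limma's adjusted p, 36 were higher and 22 lower in OPC vs ULA (32.2% and 21.7% of all genes tested), 38 higher and 25 lower in ULA vs PS (38.4% and 30.5%), and 44 higher and 19 lower in OPC vs PS (40.4% and 23.9%). Their median log2FC was 0.15, 0.25 and 0.34 in the 3 comparisons. The counts hold Ucma and Gdf10, which each passed the filter only through the group where it is high. A call needs no minimum fold here, and 54%, 68.9% and 64.4% of all genes tested passed in the 3 comparisons. All 7 lists were chosen with earlier results of these data known. Over all genes, 59.8% of the calls in OPC vs ULA were higher, against 48.9% after upper-quartile rescaling.

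**Figure D4:**
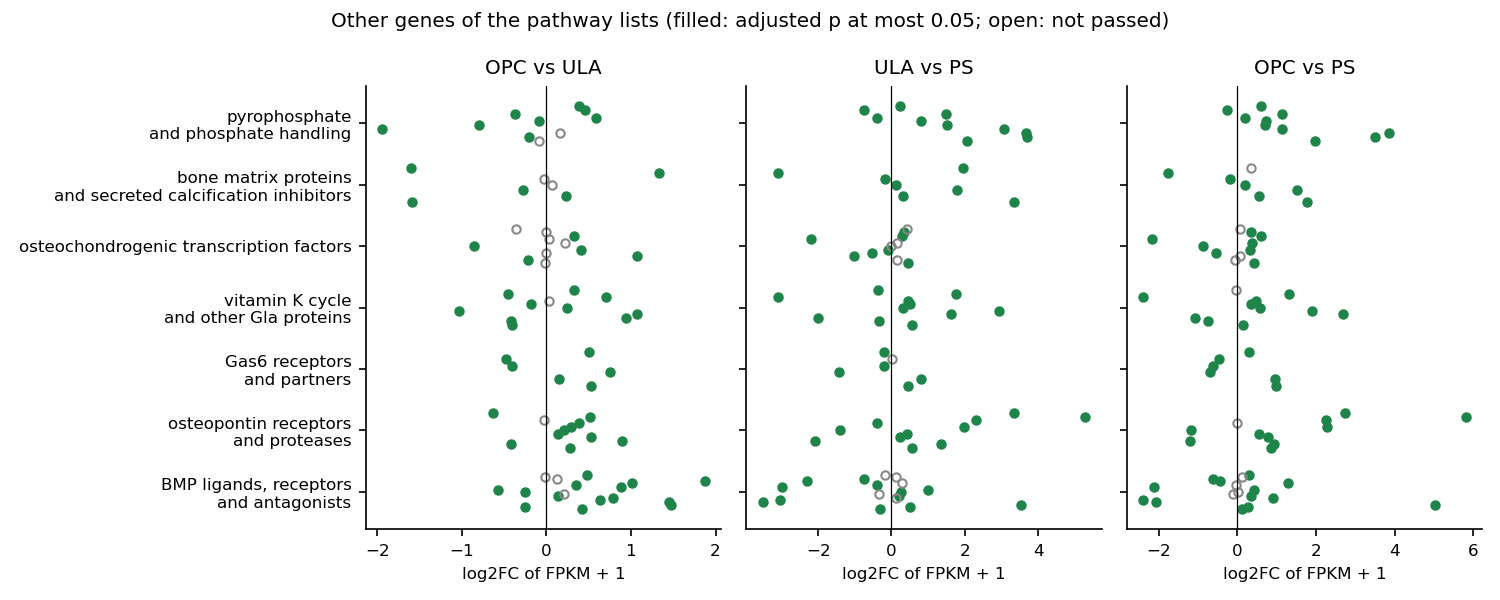
Tested genes of each of the 7 pathway lists in OPC vs ULA, in ULA vs PS and in OPC vs PS, drawn as dots at their log2FC. Filled dots passed the 0.05 limit on the adjusted p from limma, and open dots did not. In pyrophosphate and phosphate handling, 8 of 10 were higher in ULA vs PS and 9 of 10 in OPC vs PS, against 3 of 10 in OPC vs ULA. Over all genes tested, the shares called higher were 38.4%, 40.4% and 32.2%.

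Around Enpp1, most tested genes of extracellular pyrophosphate and phosphate handling were called higher off polystyrene. Of 10 tested, 3 were higher and 5 lower in OPC vs ULA, beside 32.2% and 21.7% of all genes tested. In ULA vs PS 8 were higher and 2 lower, beside 38.4% and 30.5%. In OPC vs PS 9 were higher and 1 lower, beside 40.4% and 23.9%. Their medians were -0.09, 1.5 and 0.93 in the 3 comparisons. The list was chosen with earlier results of these data known. Ankh, which encodes a membrane protein needed for pyrophosphate and ATP release, had 73.9 ± 4.66 FPKM in OPC, 78.6 ± 3.42 in ULA and 18.1 ± 0.808 in PS (SD, n = 3 each). It rose in ULA vs PS (log2FC 2.06, adjusted p = 1.52e-09 from limma) and in OPC vs PS (1.97, adjusted p = 3.18e-09) and did not pass in OPC vs ULA (-0.09, adjusted p = 0.199). The paralogs of Enpp1 moved further: Enpp3, an ectonucleotidase, averaged 259.7 ± 13.2 FPKM in OPC, 231 ± 8.21 in ULA and 17.2 ± 1.72 in PS, and Enpp2, which makes lysophosphatidic acid, 207 ± 4.98, 239 ± 17.3 and 17.6 ± 0.216. In OPC vs PS the log2FC was 3.84 for Enpp3 and 3.49 for Enpp2 (limma adjusted p = 3.42e-10 and 1.65e-10).

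Nt5e separated OPC from ULA most clearly in this list. It encodes CD73, which turns AMP into adenosine, and its loss causes arterial calcification in humans. Its level was 21.3 ± 0.458 FPKM in OPC, 84.6 ± 2.0 in ULA and 9.24 ± 0.341 in PS (SD, n = 3 each). It fell in OPC vs ULA (log2FC -1.94, adjusted p = 3.00e-09 from limma) while rising in ULA vs PS (3.06, adjusted p = 4.47e-11) and OPC vs PS (1.12, adjusted p = 1.14e-08). The adenosine transporter gene Slc29a1 averaged 78.0, 101 and 35.2 FPKM in OPC, ULA and PS and also fell in OPC vs ULA (-0.37, adjusted p = 5.07e-04 from limma). Phospho1, a phosphatase of matrix vesicles, was lower too, at 2.46, 5.02 and 1.11 FPKM in OPC, ULA and PS (OPC vs ULA -0.80, adjusted p = 2.88e-04 from limma). In the other direction, OPC exceeded ULA for the phosphate importer Slc20a2 (25.3, 16.4 and 21.9 FPKM in OPC, ULA and PS), the phosphate exporter Xpr1 (13.6, 10.2 and 8.57 FPKM) and Tmem119, a membrane protein of osteoblast lineage cells (41.9, 30.1 and 50.8 FPKM), with log2FC of 0.59, 0.38 and 0.46 (limma adjusted p = 1.84e-05, 0.00108 and 2.08e-06). Tmem119 was the 1 gene of the list lower in OPC vs PS (-0.27, adjusted p = 2.89e-05 from limma).

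Of the bone matrix proteins and secreted calcification inhibitors, 7 were tested. In OPC vs ULA 2 were higher and 3 lower, beside 32.2% and 21.7% of all genes tested. In ULA vs PS 5 were higher and 2 lower, beside 38.4% and 30.5%. In OPC vs PS 4 were higher and 2 lower, beside 40.4% and 23.9%. Their medians were -0.03, 0.32 and 0.34 in the 3 comparisons. Tnfrsf11b, whose product osteoprotegerin is a decoy for the osteoclast factor RANKL and protects arteries from calcification in mice, was lowest in ULA, where Mgp was highest. It had 16.9 ± 3.85 FPKM in OPC, 6.03 ± 0.316 in ULA and 59.1 ± 1.62 in PS (SD, n = 3 each). It rose in OPC vs ULA (log2FC 1.33, adjusted p = 1.83e-05 from limma) and fell in ULA vs PS (-3.09, adjusted p = 1.71e-08) and OPC vs PS (-1.76, adjusted p = 1.16e-06). The acid phosphatase gene Acp5, known from osteoclasts and macrophages and able to dephosphorylate osteopontin, had the order of Spp1, with 16.5 ± 1.10 FPKM in OPC, 51.7 ± 3.14 in ULA and 4.16 ± 0.172 in PS, as did the protease gene Ctsk (202, 244 and 69.9 FPKM). Acp5 fell in OPC vs ULA (-1.59, adjusted p = 9.79e-08 from limma) and was the larger change of these, since Ctsk stood at -0.28 (adjusted p = 4.63e-04). Ucma, a Gla protein of cartilage, averaged 0.325, 2.96 and 0.0285 FPKM in OPC, ULA and PS. Because it is listed at 0 in some libraries and passed the filter only through the ULA group, no fold is given. Ucma is among the 3 lower in OPC vs ULA and the 5 higher in ULA vs PS, so those counts rest partly on that filter.

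The abundant matrix genes of the same list differed less. Sparc, which encodes the calcium-binding osteonectin, had 4102, 4187 and 4696 FPKM in OPC, ULA and PS, with log2FC of -0.03 for OPC vs ULA (limma adjusted p = 0.520) and -0.20 for OPC vs PS (adjusted p = 0.00113), the second of which did not pass when no filter on low values was used (adjusted p = 0.0870). The proteoglycan gene Bgn had 4086, 3485 and 2783 FPKM in OPC, ULA and PS and was higher in OPC vs ULA (0.23, adjusted p = 3.58e-04 from limma) and OPC vs PS (0.55, adjusted p = 4.80e-07).

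Among partners of Runx2 and other osteochondrogenic transcription factors, 11 were tested. In OPC vs ULA 3 were higher and 2 lower, beside 32.2% and 21.7% of all genes tested. In ULA vs PS 3 were higher and 4 lower, beside 38.4% and 30.5%. In OPC vs PS 5 were higher and 3 lower, beside 40.4% and 23.9%. Their medians were 0.00, 0.14 and 0.07 in the 3 comparisons. Cbfb, the subunit that stabilizes RUNX proteins on DNA, had 31.7, 32.2 and 23.3 FPKM in OPC, ULA and PS and was higher in OPC vs PS (log2FC 0.43, adjusted p = 6.34e-06 from limma). Its family member Runx1 was above Runx2 in level, at 48.0, 35.7 and 38.2 FPKM, and higher in OPC vs ULA (0.42, adjusted p = 1.11e-05 from limma). Sox9, the factor of chondrocyte identity, fell on both substrates against PS, with 6.44 ± 0.168 FPKM in OPC, 6.32 ± 0.937 in ULA and 32.5 ± 0.648 in PS and log2FC of -2.20 for ULA vs PS (limma adjusted p = 1.10e-08) and -2.17 for OPC vs PS (adjusted p = 1.82e-08). Id3, a target of BMP signalling, was the only DEG of the list in OPC vs ULA, with 325, 154 and 310.3 FPKM in OPC, ULA and PS (1.07, adjusted p = 4.99e-07 from limma), and in OPC vs PS it did not pass (0.07, adjusted p = 0.306).

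Beyond Ggcx and Vkorc1, 11 genes of vitamin K metabolism and of other proteins with, or proposed to have, Gla residues were tested. In OPC vs ULA 5 were higher and 5 lower, beside 32.2% and 21.7% of all genes tested. In ULA vs PS 7 were higher and 4 lower, beside 38.4% and 30.5%. In OPC vs PS 7 were higher and 3 lower, beside 40.4% and 23.9%. Their medians were 0.03, 0.45 and 0.34 in the 3 comparisons. Nqo1, a quinone reductase able to reduce vitamin K, was highest in OPC. It had 940.3 ± 107 FPKM in OPC, 446 ± 16.4 in ULA and 144 ± 6.75 in PS (SD, n = 3 each), with log2FC of 1.07 for OPC vs ULA (limma adjusted p = 3.70e-06) and 2.69 for OPC vs PS (adjusted p = 3.24e-09). Aifm2, which reduces vitamin K as well, had the other order in OPC vs ULA (10.5, 14.2 and 9.34 FPKM in OPC, ULA and PS, log2FC -0.41, limma adjusted p = 2.07e-04). Calu, whose product calumenin inhibits the carboxylase, was lowest in OPC, at 271, 363 and 459 FPKM in OPC, ULA and PS (OPC vs ULA -0.42, limma adjusted p = 6.04e-05, and OPC vs PS -0.76, adjusted p = 5.08e-07).

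Postn (periostin), for which Gla residues are disputed, had the order of Mgp, with 1759.5 ± 77.2 FPKM in OPC, 3589 ± 81.5 in ULA and 472 ± 4.91 in PS, and it fell in OPC vs ULA (log2FC -1.03, adjusted p = 8.41e-08 from limma). Prrg1, a transmembrane Gla gene outside the naming rule and named after its values were seen, had the same order, with 16.2, 18.5 and 12.6 FPKM in OPC, ULA and PS. Others were ordered differently. Pros1, the anticoagulant protein S and a TAM receptor ligand like Gas6, had 64.9, 54.7 and 43.3 FPKM in OPC, ULA and PS and was higher in OPC vs ULA (0.24, adjusted p = 5.38e-04 from limma) and OPC vs PS (0.57, adjusted p = 9.32e-07). Prrg4, of the same family as Prrg1, was highest in PS, with 5.27, 2.87 and 32.1 FPKM in OPC, ULA and PS (OPC vs PS -2.40, adjusted p = 1.76e-08 from limma).

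Of the Gas6 receptors and partners, 6 were tested. In OPC vs ULA 4 were higher and 2 lower, beside 32.2% and 21.7% of all genes tested. Adam17, among the 4, did not pass after upper-quartile rescaling (limma adjusted p = 0.205). In ULA vs PS 2 were higher and 3 lower, beside 38.4% and 30.5%. In OPC vs PS 3 were higher and 3 lower, beside 40.4% and 23.9%. Their medians were 0.33, -0.10 and -0.09 in the 3 comparisons. Axl, the main receptor for Gas6, had 56.5 ± 1.5 FPKM in OPC, 33.0 ± 0.825 in ULA and 91.3 ± 1.76 in PS (SD, n = 3 each). It rose in OPC vs ULA (log2FC 0.76, adjusted p = 2.23e-07 from limma) and fell in ULA vs PS (-1.44, adjusted p = 7.76e-10), but in OPC vs PS it fell (-0.68, adjusted p = 1.19e-07) where Gas6 stood at 0.31 without a test. Tyro3 was lower in level, at 6.74, 4.44 and 5.29 FPKM in OPC, ULA and PS, and rose in OPC vs ULA (0.51, adjusted p = 3.74e-04 from limma). Mertk did not reach the filter, with 0.352, 0.464 and 0.0910 FPKM. The sheddase gene Adam10, whose product cleaves Axl, was highest in OPC at 38.1, 26.1 and 18.8 FPKM (OPC vs ULA 0.53, limma adjusted p = 4.20e-05), and Mfge8, a bridge to dying cells like Gas6, was lower in OPC (533 FPKM) than in ULA (743 FPKM) and PS (740.4 FPKM).

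Receptors and proteases of osteopontin were tested for 11 genes. Of these, 8 were higher and 2 lower in OPC vs ULA, beside 32.2% and 21.7% of all genes tested. In ULA vs PS 8 were higher and 3 lower, beside 38.4% and 30.5%. In OPC vs PS 8 were higher and 2 lower, beside 40.4% and 23.9%. Their medians were 0.28, 0.56 and 0.85 in the 3 comparisons. Cd44, the hyaluronan receptor that osteopontin also binds, had 176 ± 11.7 FPKM in OPC, 144 ± 4.48 in ULA and 97.3 ± 3.35 in PS (SD, n = 3 each), rising in OPC vs ULA (log2FC 0.28, adjusted p = 0.00124 from limma) and OPC vs PS (0.85, adjusted p = 4.42e-07). The integrin chains of the classic osteopontin receptor moved by unequal amounts in OPC vs PS, with Itgb3 at 19.7, 15.9 and 3.26 FPKM in OPC, ULA and PS (2.28, limma adjusted p = 1.21e-08) and Itgav at 96.0, 87.0 and 65.0 FPKM (0.55, limma adjusted p = 1.73e-07). In OPC vs ULA, Itgav stood at 0.14 (limma adjusted p = 0.00297), a call that upper-quartile rescaling ended (adjusted p = 0.125). The same rescaling ended the calls of Itgb1 (limma adjusted p = 0.0629) and Mmp3 (0.0573), both higher in OPC vs ULA. The Mmp3 call also ended with a pseudocount of 0.1, with no filter and with the replicate block (limma adjusted p = 0.108, 0.0575 and 0.0510). The beta chain Itgb1 was highest in PS (273, 236 and 621 FPKM in OPC, ULA and PS).

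The metalloproteases that cleave osteopontin differed chiefly from PS. Mmp2 had 2129 ± 75 FPKM in OPC, 2177 ± 99.5 in ULA and 442 ± 9.18 in PS (SD, n = 3 each), with no difference called in OPC vs ULA (log2FC -0.03, adjusted p = 0.559 from limma). Mmp3 had 123 ± 15, 85.7 ± 9.23 and 1.25 ± 0.60 FPKM and Mmp9 7.24 ± 0.202, 11.8 ± 1.67 and 0.242 ± 0.0503 FPKM in OPC, ULA and PS. In OPC vs PS the log2FC was 5.81 for Mmp3 and 2.73 for Mmp9 (limma adjusted p = 3.85e-09 and 1.02e-08).

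BMP ligands, which induce Runx2 in bone and which Mgp binds and inhibits, were split. Of 17 genes tested for BMP ligands, receptors and antagonists, 11 were higher and 3 lower in OPC vs ULA, beside 32.2% and 21.7% of all genes tested. In ULA vs PS 5 were higher and 7 lower, beside 38.4% and 30.5%. In OPC vs PS 8 were higher and 5 lower, beside 40.4% and 23.9%. Their medians were 0.42, -0.17 and 0.11 in the 3 comparisons. Gdf10 is among the 11 and the 8 higher, though it passed the filter only through the OPC group, where it is high. After upper-quartile rescaling, Bmpr1a, among the 11, and Acvr1, among the 8, did not pass (limma adjusted p = 0.157 and 0.458). Bmp2 had 90.8, 87.1 and 90.1 FPKM in the OPC libraries, 33.6, 29.9 and 31.4 FPKM in the ULA libraries and 1.39, 1.49 and 2.69 FPKM in the PS libraries. It rose in OPC vs ULA (log2FC 1.47, adjusted p = 2.39e-05 from limma), in ULA vs PS (3.54, adjusted p = 1.81e-08) and in OPC vs PS (5.01, adjusted p = 3.18e-09). Bmp4 had the reverse relation to PS, with 17.9 ± 3.21 FPKM in OPC, 5.88 ± 0.452 in ULA and 77.6 ± 0.319 in PS, as did Bmp6 with 26.2 ± 4.09, 16.5 ± 0.800 and 142 ± 3.81 FPKM. In OPC vs PS their log2FC was -2.07 and -2.40 (limma adjusted p = 1.11e-07 and 2.15e-08), and in OPC vs ULA Bmp4 rose by 1.44 (adjusted p = 3.72e-06).

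The BMP antagonist gene Grem1 was the gene of this list that rose furthest in OPC vs ULA, with 156 ± 18.8 FPKM in OPC, 41.5 ± 1.75 in ULA and 209.9 ± 1.76 in PS (log2FC 1.87, adjusted p = 9.79e-08 from limma). Chrd, which encodes chordin, another BMP antagonist, fell instead (5.43, 8.59 and 3.80 FPKM in OPC, ULA and PS, OPC vs ULA -0.57, limma adjusted p = 0.00194).

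**Figure D5:**
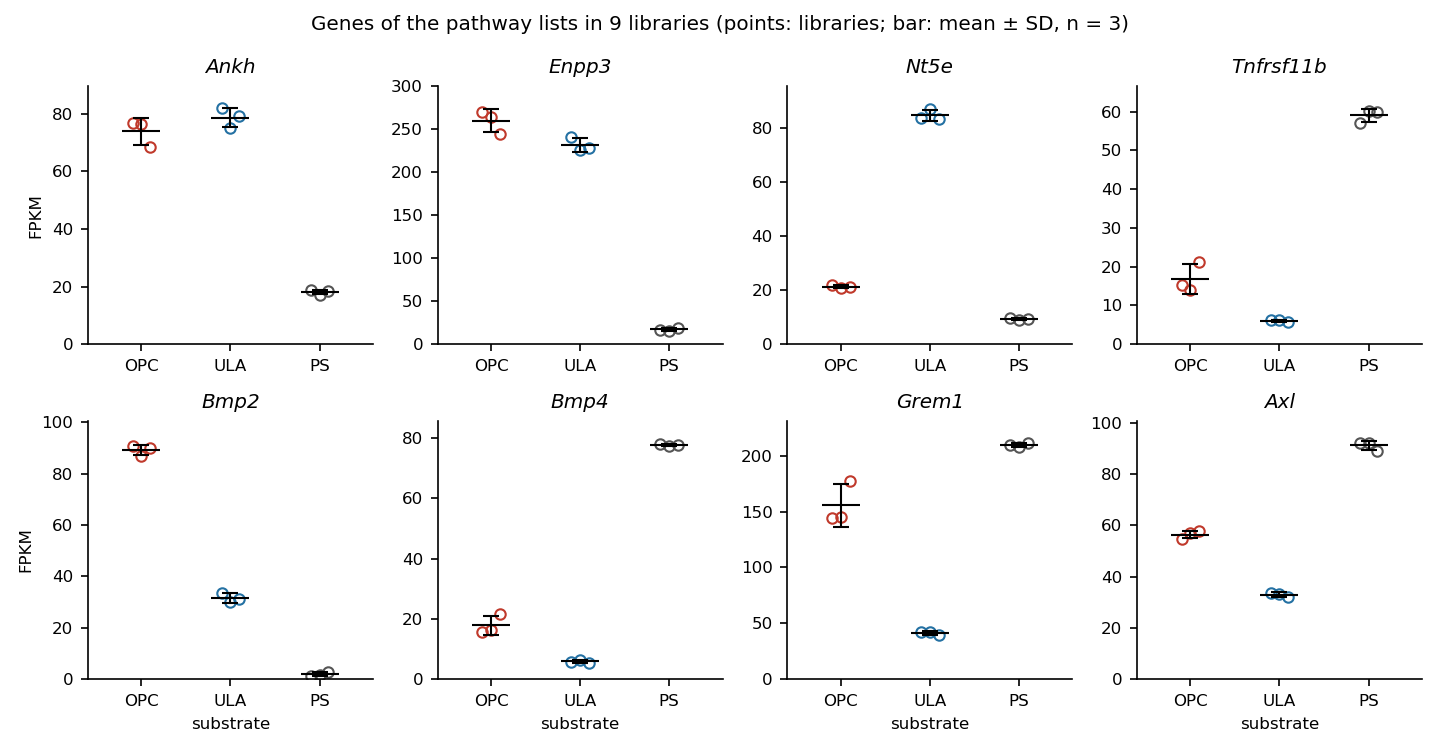
FPKM of 8 genes from the pathway lists in each of the 9 libraries (points) with the mean ± SD (bars, n = 3) on the OPC, ULA and PS substrates, each panel on its own linear axis from 0. Ankh and Enpp3 follow Mgp in standing high in OPC and ULA, Bmp2 was highest in OPC at 87.1 to 90.8 FPKM, and Tnfrsf11b, Bmp4, Grem1 and Axl were lowest in ULA and highest in PS.

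The genes most like Mgp and Spp1 across the 9 libraries were found by the root mean square difference of log2(FPKM + 1) centred on its mean, over 8154 genes with a mean of at least 5 FPKM. For Mgp these included Serping1, the C1 inhibitor gene, at 0.133, Dnm1 at 0.144, Slc6a4 at 0.167 and the endothelin receptor gene Ednra at 0.171. Serping1 had means of 132, 170.0 and 13.4 FPKM in OPC, ULA and PS. For Spp1 they were Slc6a4 and Serping1, both at 0.104, then the glutamine synthetase gene Glul at 0.119, the haptoglobin gene Hp at 0.120 and Enpp2 at 0.122. Slc6a4 had means of 13.0, 15.9 and 0.374 FPKM in OPC, ULA and PS, and at its PS level the added 1 narrows its differences from PS. Likeness with a smaller pseudocount was not tested. Mgp and Spp1 differed from each other by 0.204, so Spp1 was number 10 in likeness to Mgp, and Mgp number 11 in likeness to Spp1. Dnm1 overlaps another listed gene, whose reads may be shared with it.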

How the data were processed

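RNA-Seq of rat CDCs was analysed in 9 libraries, 3 per substrate (OPC, ULA, PS), grouped by their titles. The authors deposited 1 table of values, read here as FPKM, for 19919 genes. The unit was read from the values, which sum to 444736.4 to 460731.7 per library. Among genes below 0.3 FPKM (1263 to 1740 per library pair), 83.7 to 87.6% stood at whole-read ratios between libraries, within 0.01 log2. At another offset the share was 5.40 to 8.68%. Such ratios compare a gene with itself, so its length cancels, and they cannot show that values were scaled to length. Depth relative to the first PS library was 0.874 to 1.18, and without the absolute depth no counting interval can be had. The submitters' processing notes name HISAT2 2.1, StringTie 1.3.0 and rn6, whereas the study's methods name featureCounts and DESeq2. The tool behind the values and the use of strand are not given in the sources used here. No 2 libraries were identical, and 0 columns were left unmapped.

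Genes with at least 1 FPKM in at least 3 libraries (12513) were fitted as log2(FPKM + 1) in limma 3.58.1 (R 4.3.3, trend, 6 residual degrees of freedom), tested two-sided with Benjamini-Hochberg adjustment over all 12513 genes. This scale understates changes of low genes. The fit was checked on simulated data. The 8 genes and the 7 lists were chosen with earlier results of these data known. Named were all 8 genes, for each list and comparison up to 3 genes per direction with the smallest adjusted p, Ankh and 6 receptor genes, and the 5 genes most like Mgp and Spp1, of which 1 is not reported here. Of 117 list genes, 13 found no match and are not analysed here. Alternatives were a pseudocount of 0.1, no filter, no trend, no fold threshold, a fold threshold on list genes, upper-quartile rescaling, a replicate block and each library left out. Rescaling without Mgp was chosen after seeing the data.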

Additional observations from a re-analysis of the deposited data

How the results depend on the processing

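Both scalings shifted the small differences of the 8 genes. After upper-quartile rescaling the log2FC in OPC vs ULA was -0.29 for Mgp, -0.030 for Runx2, -0.47 for Enpp1, 0.13 for Ggcx, 0.74 for Gas6 and -0.19 for Vkorc1, and in OPC vs PS 2.98 for Mgp, -0.20 for Runx2, 0.50 for Enpp1, 0.11 for Ggcx, 0.23 for Gas6 and 0.20 for Vkorc1. With libraries rescaled to equal sums without Mgp, Ggcx stood at 0.22 in OPC vs ULA, 0.017 in ULA vs PS and 0.24 in OPC vs PS, and Gas6 at -0.48 in ULA vs PS and 0.36 in OPC vs PS. With a pseudocount of 0.1, which shrinks low values less, Alpl stood at -0.38, -1.02 and -1.40 in the 3 comparisons (standard error 0.31). OPC vs ULA then had 892 DEGs (391 higher, 501 lower) against 542 (227 higher, 315 lower) with a pseudocount of 1. Without the fold threshold, 6751 genes were called in OPC vs ULA (4034 higher, 2717 lower), 8627 in ULA vs PS (4807 and 3820) and 8053 in OPC vs PS (5059 and 2994), against 1978 and 1591 DEGs in the PS comparisons. With a |log2FC| of at least 1 also required of list genes, 7 were higher and 4 lower in OPC vs ULA, 19 and 12 in ULA vs PS, and 16 and 9 in OPC vs PS. Ucma is counted there in OPC vs ULA and ULA vs PS, and Gdf10 in OPC vs ULA and OPC vs PS. Each passed the filter only through the group where it is high.

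Leaving out each library in turn gave 479 to 563, 1889 to 1979 and 1507 to 1659 DEGs in the 3 comparisons. The log2FC of Mgp then ranged from -0.24 to -0.17, 3.23 to 3.30 and 3.03 to 3.09, and that of Spp1 from -0.53 to -0.42, 3.70 to 3.79 and 3.22 to 3.33. In OPC vs ULA, Alpl ranged from -0.28 (without ULA library 2) to -0.07 (without ULA library 1), Vkorc1 from -0.15 to -0.06 (without OPC library 1) and Runx2 from -0.00 (without OPC library 3) to 0.06 (without OPC library 1). At least 1 alternative ended 10 of 58 list calls in OPC vs ULA, 8 of 63 in ULA vs PS and 6 of 63 in OPC vs PS. Replicate numbers did not pair the libraries (same-numbered deviations correlated at -0.04 to 0.05 over 9 pairs), and with the replicate block there were 544, 1976 and 1596 DEGs. What depth limits was not measured, since the absolute depth is unknown.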

Other observations

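The remaining genes named by rule in the 7 lists are given here as values. Among osteopontin's integrin receptors, the alpha chain Itga8 had 38.2 ± 5.11 FPKM in OPC, 20.0 ± 0.964 in ULA and 88.3 ± 1.12 in PS (SD, n = 3 each), and rose in OPC vs ULA (log2FC 0.89, adjusted p = 1.64e-05 from limma). It overlaps another listed gene. Itga5, the fibronectin receptor chain, had the order of Mgp, with 68.8, 92.5 and 35.4 FPKM in OPC, ULA and PS, falling in OPC vs ULA (-0.42, adjusted p = 3.59e-05 from limma) and rising in ULA vs PS (1.36, adjusted p = 4.02e-09). Itga9 had 5.53, 3.54 and 2.81 FPKM and Itgb5 54.3, 41.4 and 54.3 FPKM in OPC, ULA and PS, and both rose in OPC vs ULA (0.53 and 0.38, limma adjusted p = 8.18e-04 and 8.54e-05).

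Among modulators of BMP signalling, Crim1 had 20.6 ± 3.06 FPKM in OPC, 10.7 ± 0.665 in ULA and 91.8 ± 3.15 in PS (SD, n = 3 each), close in order to Bmp4 and Bmp6, and fell in OPC vs PS (log2FC -2.11, adjusted p = 4.16e-08 from limma). Bmper was highest in OPC, at 9.06, 4.80 and 4.36 FPKM in OPC, ULA and PS (OPC vs PS 0.91, limma adjusted p = 1.22e-05). Gdf10 had 1.56, 0.274 and 0.0441 FPKM and passed the filter only through the OPC group. The receptor genes differed less, with Bmpr2, which overlaps another gene, at 41.7, 49.9 and 41.2 FPKM and Acvrl1 at 6.22, 7.61 and 5.05 FPKM in OPC, ULA and PS.

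Among the transcription factors, Tcf7l2, an effector of Wnt signalling, rose in OPC vs PS (9.35, 7.21 and 5.76 FPKM in OPC, ULA and PS, log2FC 0.61, limma adjusted p = 2.36e-05), and Msx1 fell (6.37, 6.53 and 9.75 FPKM, -0.54, adjusted p = 0.0236), a call that did not pass without OPC library 1 or 3 or PS library 2 (adjusted p = 0.0561 to 0.0853). Twist1 had 14.4, 14.4 and 11.1 FPKM and Id1 106, 123 and 111 FPKM in OPC, ULA and PS. Runx3 was near the filter at 0.149, 1.07 and 1.10 FPKM. Of the vitamin K list, Dhcr7 had 4.97, 2.12 and 11.5 FPKM and Tgfbi 2.77, 4.12 and 0.506 FPKM in OPC, ULA and PS. Of the Gas6 partners, the shedding protease gene Adam17, which overlaps an RNA gene, had 46.9, 42.1 and 23.6 FPKM, and Lgals3, the galectin-3 gene, 57.7, 76.7 and 88.4 FPKM.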
